A study of Mus musculus with 4 samples.

Results

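The genes described here are 10 genes by which mature Müller glia, the radial glial cells of the retina, are recognised. They are Glul, Rlbp1, Slc1a3, Aqp4, Kcnj10, Apoe, Dkk3, Sox9, Sox2 and Hes1, and they were taken by name from the deposited table of 48897 genes, in which all 10 were listed and all 10 passed the filter on low counts that left 17766 genes. The libraries were RNA-Seq libraries of whole retina from C57BL/6 mice (C57BL/6J in the study's methods) of wild type genotype at postnatal day 9. Every eye had received an intravitreal injection at postnatal day 3, 6 days earlier. The left eyes received 0.6 nmol of a miR-124-3p antagomir, an antisense oligonucleotide against the mature microRNA, in 1 μl (anti-miR-124 group), and the right eyes a scrambled sequence in the same volume and concentration (NC group). There were 2 libraries per group, and the retinas of a group were mixed and came from more than 1 litter, without a statement of how they were divided between libraries. No eye without injection was analysed here. The antagomir and the left eye therefore cannot be told apart.

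Müller glia span the whole depth of the retina and arise late, from the same progenitors as rods and bipolar cells. They take up glutamate and return it to neurons as glutamine, carry potassium and water away from active synapses, handle retinoids for cones and secrete lipoproteins. Notch signaling and transcription factors that they keep from the progenitor state, such as Sox2, Sox9 and Hes1, mark them from early on, whereas channels such as Aqp4 and Kcnj10 appear as they mature. Several of these genes are also used by other cells of the eye, Apoe by microglia and pigment epithelium, Rlbp1 by pigment epithelium, and Aqp4 and Slc1a3 by astrocytes. In bulk RNA, fewer cells of a type and less RNA per cell cannot be told apart.

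In the deposited table the column names carry the eye and a number, which recurs for a left and a right eye. The lower number is marked A and the higher B, which gives the libraries NC A, NC B, anti-miR-124 A and anti-miR-124 B. The A libraries are referred to as pair A and the B libraries as pair B, although nothing states that a pair came from the same mice. The totals of counted reads lay between 16317239 and 18726963. Library NC A stood apart by its lens transcripts, as 21 lens genes made up 6.72% of its TPM (transcript abundance corrected for gene length and scaled to a fixed total), against 0.0175% to 0.0236% in the other libraries. Library anti-miR-124 B stood apart by microglia and gliosis genes, whose values are given beside those of Apoe and Aqp4. Levels are given as TPM where genes are compared with each other. For single genes, libraries are compared by CPM (counts scaled to a fixed library total) with TMM scaling, called normalised counts, which does not correct for length. Sums of gene lists are given in TPM for each library, and in NC A the lens transcripts lower the TPM of all other genes.

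Of the 10 genes, 8 had fitted folds between 0.918 and 1.06 in the anti-miR-124 group over the NC group, and Apoe and Aqp4 had 1.47 and 1.27. With edgeR's quasi-likelihood test, an adjusted p-value (Benjamini-Hochberg over all genes tested) under 0.05 was reached by 0 of the 10 genes and by 0% of all genes tested. At an unadjusted p-value under 0.05 there was 1 gene, Apoe, which was higher, against 3.91% of all genes tested, 2.23% higher and 1.68% lower. DESeq2's Wald test gave 0 of the 10 genes an adjusted p-value under 0.05, and 0.203% of all genes tested. The median fitted log2 fold change of the 10 genes was 0.037, and that of all genes tested was 0.001. It lay between -0.014 and 0.062 when 1 library was left out, the lowest without anti-miR-124 B. For 8 of the 10 genes the 95% interval of the fitted fold change lay within 1.5-fold in either direction. The other two, Apoe and Aqp4, had the widest intervals, and both were highest in anti-miR-124 B.

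Sequence near the start sites is shown for a SOX core motif, because Sox2 and Sox9 are themselves DNA-binding factors of the SOX family. Promoter windows of RefSeq (GRCm38.p6) from 250 bases before to 50 bases after each start were found for 6 of the 10 genes, Glul, Rlbp1, Slc1a3, Kcnj10, Apoe and Sox2, in 8 windows. Of 11 motifs searched on both strands, ACAAAG and its reverse complement CTTTGT, a core bound by SOX proteins, was chosen for display after the matches had been seen. It was present in 4 of the 8 windows, 1 each of Kcnj10, Sox2, Apoe and Rlbp1, and in 18.7% of all windows of the same length. Another core bound by SOX proteins among the motifs searched, ATTGTT, was in 0 of the 8 and in 10.7% of all windows. The stretches of 30 bases are printed in the direction of transcription, with the core in capitals.
Kcnj10, chr1:172341198-172341227, + strand: ccctccattcacACAAAGtttggcttcggc
Sox2, chr3:34649777-34649806, + strand: ggggggggggatACAAAGgttccccagcgg
Apoe, chr7:19699225-19699254, - strand: ggtgtccgctccCTTTGTtggcgggggagg
Rlbp1, chr7:79387052-79387081, - strand: atatgtcctgccCTTTGTgaagaaggagta
The core begins 206 bases before the start of Sox2, 54 before that of Apoe and 42 before that of Rlbp1, and at the start itself in Kcnj10. These distances count from the RefSeq start of each window. For Rlbp1 that start lies inside the gene position given below, so the core is nearer to the edge of that position. The 4 genes with the core did not share a direction, as Rlbp1 and Sox2 had fitted log2 fold changes of -0.12 and Apoe and Kcnj10 of 0.56 and 0.08. Of the other motifs, GGGCGG was in 4 of the 8 windows (Glul, Kcnj10, Slc1a3 and Sox2) and in 35.7% of all windows, and CCAAT in the same 4 genes and in 37.4%. TATAAA was in 3 windows, 1 each of Apoe, Rlbp1 and Slc1a3 (13.6% of all), and GATTA in 3 windows, all of Apoe (22%). TGGGAA (25.6% of all) and TTGGCA (14.1%) were each in 1 window of Apoe, and TTCNNNGAA (8.3%) in that of Slc1a3. ATTGTT (10.7% of all), CACGTG (7.15%) and the full palindrome of nuclear factor I (0.32%) were in 0 of the 8. Matches to TTGGCA can overlap those to the palindrome, and matches to ATTGTT can overlap those to CCAAT. A match describes these letters and shows neither a bound site nor a cause.

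The levels of the 10 genes covered a range of 176-fold in mean TPM over the 4 libraries. Apoe was the most abundant, with a mean of 686 ± 248 TPM (SD, n = 4 libraries) and the 140th place among all listed genes. A group of 4 genes followed, with means of 375 ± 32.3 TPM for Dkk3, 371 ± 17.8 for Rlbp1, 357 ± 39.9 for Glul and 274 ± 13.1 for Slc1a3. Dkk3 was above Rlbp1 in 2 of 4 libraries, and Rlbp1 above Glul in 2 of 4, so the order of these neighbours was within their spread. Slc1a3 was below Glul in 4 of 4 libraries. The transcription factors lay lower, at 50.2 ± 2.25 TPM for Sox2, 32.7 ± 2.90 for Sox9 and 29.3 ± 0.657 for Hes1, in the same order in 4 of 4 libraries. Both channels were the least abundant, with 13.5 ± 1.11 TPM for Kcnj10 and 3.90 ± 1.06 for Aqp4. Together the 10 genes made up 0.198% and 0.209% of all TPM in the libraries NC A and NC B, against 0.210% and 0.261% with anti-miR-124. The lens genes, at 6.72% of TPM in NC A, lower the share of all other genes there. In normalised counts the 10 genes summed to 1796 and 1718 in NC A and NC B, against 1736 and 2003 with anti-miR-124, so NC A was above anti-miR-124 A.

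**Figure D1:**
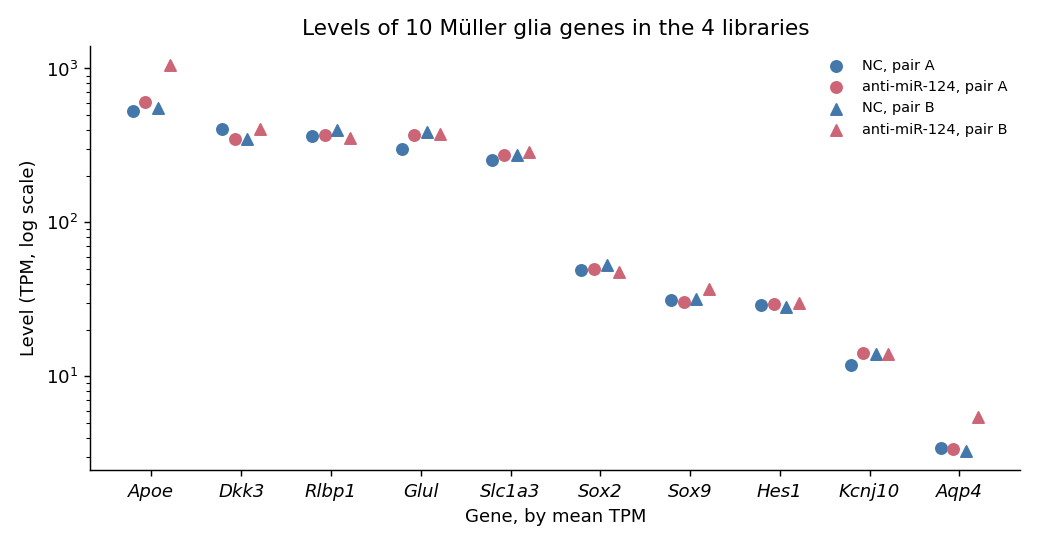
Levels of the 10 genes in TPM on a log axis, 1 point per library, ordered by mean TPM (circles, pair A; triangles, pair B; blue, NC; red, anti-miR-124). The points of a gene lie close together, except that Apoe (1050 TPM) and Aqp4 (5.48 TPM) stand higher in anti-miR-124 B.

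The genes of glutamate handling differed between the groups by less than their error. Glul (chr1:153899929-153909723, GRCm38) encodes glutamine synthetase, which turns glutamate and ammonia into glutamine in Müller glia. It had 275 and 326 normalised counts in the libraries NC A and NC B, against 318 and 316 with anti-miR-124. Library NC A was the lowest and NC B the highest, so the groups overlapped, and the difference between both NC libraries (18.3%) was larger than that within pair A (15.4%). The fitted log2 fold change was 0.08 (standard error, SE, of 0.09, 95% interval -0.15 to 0.30, adjusted p = 0.989, edgeR). Without NC A it was -0.0391, so its sign rested on that library.

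Slc1a3 (chr15:8634124-8710807) encodes GLAST, the transporter through which Müller glia take up glutamate. Its 4 libraries were the most alike of any of the 10 genes, with 355 and 350 normalised counts in the NC libraries, against 354 and 365 with anti-miR-124. The highest library exceeded the lowest by 1.04-fold. From the fit, the log2 fold change was 0.03 (SE 0.06), and its 95% interval in folds ran from 0.918 to 1.13. A short transcript of unknown coding status that lies within Slc1a3 on the same strand had between 75 and 80 counts per library, against 5719 to 6883 for Slc1a3.

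The other genes of glutamate uptake and glutamine turnover were 11, all tested. In both pairs, 3 genes (the transporters Slc1a1, Slc1a7 and Slc38a3) were higher and 3 (among them Slc38a2 and Slc38a5) lower, where 22.8% and 24% of all genes tested were. These shares of all genes tested are also the ones to set beside the counts of the following lists. Genes named for their direction in both pairs, in this and the following lists, were picked out after their values were seen. The list had a median log2 fold change of -0.03, which lay between -0.045 and 0.035 with 1 library left out and was above 0 when NC A, NC B or anti-miR-124 B was the one left out. None of the 11 had an adjusted p-value under 0.05 with edgeR, and 1 had an unadjusted p-value under 0.05. That gene, named after its values were seen, was Slc38a5, a glutamine transporter, with 5.77 and 3.38 normalised counts in the NC libraries, against 2.99 and 1.59 with anti-miR-124. The most abundant genes of the list were Slc38a3, a glutamine transporter, and Glud1, glutamate dehydrogenase, with log2 fold changes of 0.06 and -0.01.

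Kcnj10 and Aqp4 encode Kir4.1 and aquaporin-4, the potassium and water channels of Müller glia endfeet, and their values differed in kind. Kcnj10 (chr1:172341210-172374085) had 21.5 and 23.1 normalised counts in the NC libraries, against 24.0 and 23.2 with anti-miR-124. Both anti-miR-124 libraries were above both NC libraries, as for 16.5% of all genes tested, but the margin in pair B was 0.614%. The log2 fold change of Kcnj10 was 0.08 (SE 0.09, 95% interval -0.14 to 0.30).

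Aqp4 (chr18:15389394-15410982) had 110 and 107 counts in the libraries NC A and NC B, against 106 and 187 with anti-miR-124. The exact Poisson intervals (95%, counting error only) overlapped among the first 3 of these, from 86.8 to 133, while that of anti-miR-124 B ran from 161 to 216. After scaling, anti-miR-124 B differed from NC B by 67.4%, and anti-miR-124 A from NC A by -9.09%. The groups overlapped, as anti-miR-124 A lay between both NC libraries. The fit gave a log2 fold change of 0.34 (SE 0.26, 95% interval -0.29 to 0.97, adjusted p = 0.989, edgeR). When anti-miR-124 B was left out, it was -0.0325.

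Aqp4 is also a gene of retinal astrocytes and of reactive glia, and the sums of the lists for both were highest in the same library. The sum of the 6 astrocyte genes was 96.3 and 75.0 TPM in the libraries NC A and NC B, against 88.0 and 118 with anti-miR-124, with 2 of 6 genes (Pdgfra and S100b) higher and 1 (Fgfr3) lower in both pairs. None of the 6 had 0 counts in all libraries. Pdgfra and Gja1 were the most abundant of them, with log2 fold changes of 0.22 and 0.38. The sum of the 12 gliosis genes was 105 and 49.5 TPM in the NC libraries, against 56.8 and 319 with anti-miR-124. Gfap, the intermediate filament of reactive Müller glia and astrocytes, had 92.9 and 34.9 normalised counts in the NC libraries, against 42.2 and 200 with anti-miR-124. Serpina3n, a protease inhibitor of reactive glia, had 1.06 and 0.720 in the NC libraries, against 0.996 and 30.3 with anti-miR-124. None of the 12 had 0 counts in all libraries. Of the 11 gliosis genes tested, 0 were higher and 0 lower in both pairs, and the median log2 ratio was -0.34 within pair A and 2.31 within pair B. The part of astrocytes and reactive glia in the value of Aqp4 was not tested.

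Around the channels, 10 of 11 listed genes of water and potassium transport and of the dystrophin complex, which anchors both channels at the endfeet, were tested. In both pairs, 2 (Sntb1 and Sgcb) were higher and 1 (Sgcd) lower, and the median over the list was 0.07 on the log2 scale, and -0.018 without anti-miR-124 B. None had an adjusted p-value under 0.05, nor an unadjusted one, with edgeR. Dag1, dystroglycan, was among the most abundant, with a log2 fold change of 0.12 (SE 0.10).

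Rlbp1 (chr7:79374865-79387043) encodes CRALBP, which binds retinaldehyde in Müller glia and pigment epithelium. It was lower in both anti-miR-124 libraries than in both NC libraries, with 274 and 259 normalised counts against 292 and 289. Of all genes tested, 16.8% were lower without overlap in this way. The difference was -6.10% within pair A and -10.4% within pair B, and NC B differed from NC A by -0.904%. Its log2 fold change was -0.12 (SE 0.07, 95% interval -0.29 to 0.04), with an unadjusted p = 0.122 and an adjusted p = 0.989 (edgeR), so the difference did not pass the test. Of the 9 other genes of retinoid handling, 3 (Rdh5, Rgr and Stra6) were higher in both pairs and 0 lower, and the median log2 fold change was 0.27, which was 0.158 without NC B and 0.08 without anti-miR-124 B. No gene of the list had an unadjusted p-value under 0.05. The most abundant, the retinol dehydrogenases Rdh10 and Rdh11, had log2 fold changes of 0.07 and -0.03. The list shares 3 genes with that of pigment epithelium, whose sum was 56.9 and 94.4 TPM in the NC libraries, against 133 and 95.3 with anti-miR-124. None of its 8 genes had 0 counts in all libraries, and 3 (Rgr, Tyr and Tyrp1) were higher in both pairs and 0 lower. Its most abundant genes, Ttr (transthyretin) and Pmel (a melanosome protein), had log2 ratios of 1.27 and 1.42 within pair A and of -0.02 and -0.23 within pair B. The median log2 ratio of this list was 0.79 within pair A and 0.05 within pair B. What pigment epithelium added to Rlbp1 was not tested.

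**Figure D2:**
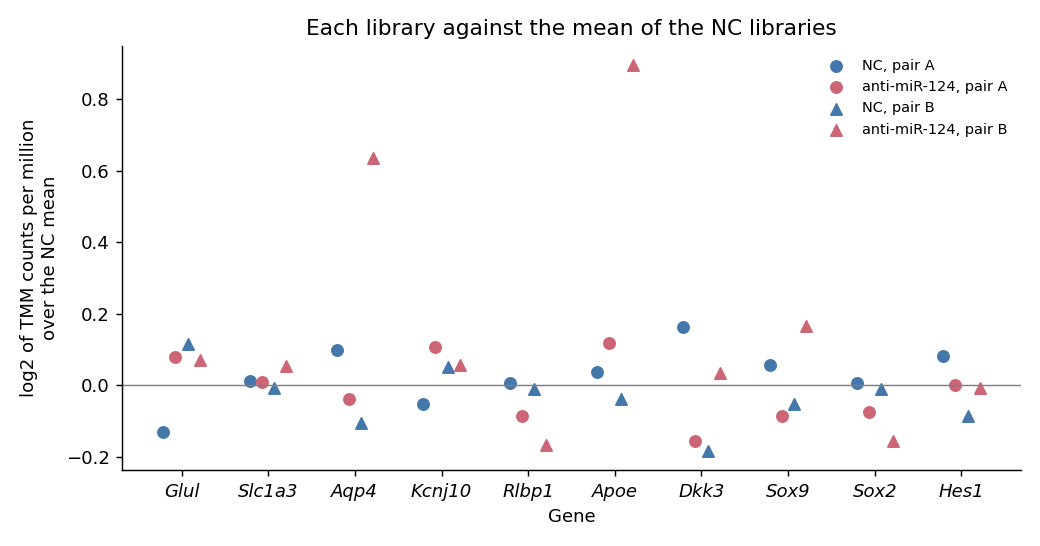
log2 ratio of the normalised counts (TMM-scaled CPM) of each library to the mean of both NC libraries, for the 10 genes (circles, pair A; triangles, pair B; blue, NC; red, anti-miR-124). Most points lie near 0, and anti-miR-124 B stands above the others for Apoe and Aqp4.

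Apoe and Dkk3 are secreted products. Apoe (chr7:19696244-19699188) encodes apolipoprotein E, which carries lipids between cells and is made by Müller glia, microglia and pigment epithelium. It had 278 and 264 normalised counts in the libraries NC A and NC B, against 294 and 504 with anti-miR-124. The means were 271 ± 10.5 and 399 ± 149 (SD, n = 2). Both anti-miR-124 libraries were above both NC libraries, by 5.43% within pair A and by 91.4% within pair B. In folds, the ratio of 1.91 in pair B was past 1.5, as it was for 7.29% of all genes tested, and Aqp4 was the only other of the 10 genes past it there. In pair A, where 3.6% of all genes tested were past it, 0 of the 10 genes were. The fitted log2 fold change of Apoe was 0.56 (SE 0.23, 95% interval 0.02 to 1.10), with an unadjusted p = 0.0454 and an adjusted p = 0.989 (edgeR), and 3.74% of all genes tested had a higher one. It did not pass the test over all genes. When anti-miR-124 B was left out, the log2 fold change was 0.12. Leaving out its counterpart in pair A gave 0.896 with an adjusted p = 0.000458 (edgeR), which rests on a single anti-miR-124 library assumed to vary like the NC group. With the lens genes left out it was 0.563.

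The share of Apoe among the summed TPM of the 10 genes does not depend on how libraries are scaled. It was 26.9% and 26.5% in the libraries NC A and NC B and 28.9% in anti-miR-124 A, against 40.5% in anti-miR-124 B. The normalised counts of the other 9 genes summed to 1518 and 1455 in the NC libraries and to 1443 and 1498 in the anti-miR-124 libraries, so that Apoe made up most of the excess in anti-miR-124 B.

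Genes of microglia, which also make Apoe, had their highest sum in the same library. The sum of the 10 microglia genes was 153 and 115 TPM in the NC libraries, against 146 and 366 with anti-miR-124. In both pairs, 4 of them (Csf1r, Cx3cr1, P2ry12 and, by a margin that rounds to 0.00 in pair A, C1qc) were higher and 0 lower, and the median log2 ratio was -0.20 within pair A and 1.61 within pair B. None of the 10 had 0 counts in all libraries. C1qb and C1qc, the most abundant, encode complement C1q chains, and C1qb had 10.8 and 6.81 normalised counts in the NC libraries, against 9.90 and 25.7 with anti-miR-124. The log2 fold change of C1qc was 1.00 (SE 0.41). P2ry12, a receptor of resting microglia named after its values were seen, had 4.78 and 3.99 in the NC libraries, against 5.21 and 4.46 with anti-miR-124. The part of microglia in the value of Apoe was not tested.

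Of 12 other genes of lipoprotein and cholesterol transport, 11 were tested. In both pairs 3 (among them Abca1 and Lrp1) were higher and 1 (Vldlr) lower, and the median log2 fold change was 0.04, with -0.056 without anti-miR-124 B and 0.132 without anti-miR-124 A. None had an adjusted p-value under 0.05 with edgeR, and 1 had an unadjusted p-value under 0.05. This was Lrp1, a receptor for apolipoprotein E named after its values were seen, with 210 and 240 normalised counts in the NC libraries, against 259 and 306 with anti-miR-124. Its log2 fold change was 0.33 (SE 0.11, unadjusted p = 0.0217, adjusted p = 0.989, edgeR). Within each pair the anti-miR-124 library was higher, by 0.30 and 0.35 on the log2 scale. The most abundant genes of the list were Vldlr and Lrp8, which are also receptors for apolipoprotein E, with log2 fold changes of -0.06 and -0.04.

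Dkk3 (chr7:112116019-112159121) encodes a secreted protein of the Dickkopf family, of which some other members restrain Wnt signaling. It had 467 and 367 normalised counts in the libraries NC A and NC B, against 374 and 427 with anti-miR-124. Both anti-miR-124 libraries lay between the NC libraries. The difference was -20.0% within pair A and 16.5% within pair B, and NC B differed from NC A by -21.5%. The log2 fold change was -0.06 (SE 0.13, 95% interval -0.36 to 0.24), and it turned to 0.128 when NC A, the one with the lens transcripts, was left out, and to 0.0347 when its anti-miR-124 counterpart was. In the list of other Dickkopf genes, their Wnt coreceptors and Kremen receptors, and the Wnt target Axin2, 7 of 9 genes were tested. In both pairs 2 (Lrp5 and Axin2) were higher and 2 (Dkk2 and Dkkl1) lower, and the median was 0.03, with -0.08 without anti-miR-124 B and 0.159 without anti-miR-124 A. Lrp6 and Kremen1, the most abundant, had log2 fold changes of 0.03 and 0.04. An unadjusted p-value under 0.05 was found for Lrp5, with a log2 fold change of 0.25 (SE 0.10), and for Dkk2, at under 1 normalised count, both named after their values were seen.

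The transcription factors differed little between the groups. Sox2 (chr3:34649995-34652461) maintains neural progenitors and is kept by Müller glia and some amacrine cells. Its values were 40.0 and 39.5 normalised counts in the NC libraries, against 37.8 and 35.7 with anti-miR-124, so that it was lower in the anti-miR-124 group without overlap. The difference was -5.66% within pair A and -9.71% within pair B, and between the NC libraries, pair B against pair A, -1.26%. The log2 fold change was -0.12 (SE 0.08, 95% interval -0.30 to 0.07, unadjusted p = 0.186, adjusted p = 0.989, edgeR). Sox2 lies within the long non-coding gene Sox2ot on the same strand, so that their reads could be split by the counting. Sox2ot had 467 and 459 counts in the NC libraries, against 486 and 371 with anti-miR-124, with a log2 fold change of -0.18 (SE 0.18). Amacrine genes, 6 in all, had a median of 0.00 on the log2 scale (-0.058 to 0.063 with 1 library left out), and 1 (Slc6a9) was higher in both pairs and 0 lower. Their sums were 455 and 522 TPM in the NC libraries, against 524 and 508 with anti-miR-124. The most abundant were Tfap2b, a transcription factor of amacrine cells, and Slc6a9, a glycine transporter, with log2 fold changes of 0.02 and 0.19.

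Sox9 (chr11:112782210-112787757), a factor of glial fate that stays on in Müller glia and astrocytes, had 42.8 and 39.7 normalised counts in the NC libraries, against 38.8 and 46.2 with anti-miR-124. The lowest and the highest value were both in the anti-miR-124 group, so the groups overlapped. Its log2 fold change was 0.04 (SE 0.11, 95% interval -0.21 to 0.30), and it was -0.0838 when anti-miR-124 B was left out and -0.0105 when NC B was. Hes1 (chr16:30065357-30067796), a repressor switched on by Notch signaling, had 16.6 and 14.8 in the NC libraries, against 15.7 and 15.6 with anti-miR-124. Both anti-miR-124 values lay between the NC values. Its log2 fold change was -0.01 (SE 0.12, 95% interval -0.29 to 0.28), with a sign that changed with the scaling.

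**Figure D3:**
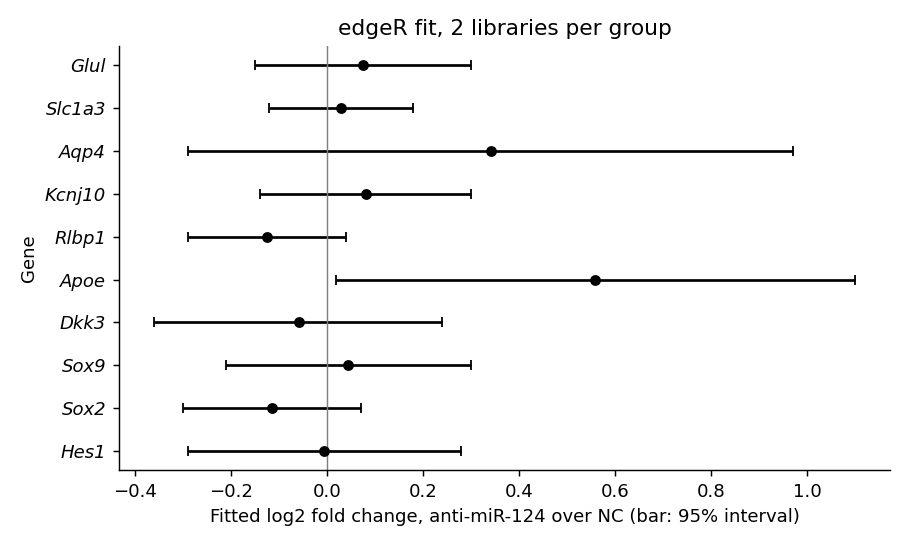
Fitted log2 fold change of the anti-miR-124 group over the NC group for the 10 genes, from edgeR with 2 libraries per group; bars are 95% intervals. The interval of Apoe (0.02 to 1.10) lies above 0 before adjustment over all genes, and those of the other 9 genes include 0.

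The Notch pathway, which controls Hes1, was described by 15 other genes, all tested. In both pairs 3 (Notch1, Notch2 and Maml1) were higher and 2 (the ligands Dll3 and Dll4) lower, and the median was -0.03, with 0.039 without NC A and 0.08 without anti-miR-124 A. None had an adjusted p-value under 0.05 with edgeR. Notch1, a receptor, and Nrarp, a target and feedback regulator, were the most abundant, with log2 fold changes of 0.11 (SE 0.09) and 0.05 (SE 0.09). The target Hes5, named after its values were seen, had 19.4 and 20.6 normalised counts in the NC libraries, against 19.6 and 18.5 with anti-miR-124. Notch2, also named after its values were seen, was the only gene of this list with an unadjusted p-value under 0.05, at a log2 fold change of 0.25 (SE 0.09, unadjusted p = 0.0263, adjusted p = 0.989, edgeR).

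Among 13 transcription factors of progenitors and glial fate, 3 (Nfia, Nfix and Id3) were higher in both pairs and 0 lower, and the median was 0.04, with 0.014 without anti-miR-124 B, 0.07 without NC A and 0.144 without anti-miR-124 A. Rax, which acts in retinal progenitors and stays on in Müller glia, was among the most abundant, with a log2 fold change of 0.10 (SE 0.12). At an unadjusted p-value under 0.05 there was 1 gene, Nfia, a factor of gliogenesis named after its values were seen. Nfia had 64.1 and 62.7 normalised counts in the NC libraries, against 75.1 and 79.5 with anti-miR-124, with a log2 fold change of 0.29 (SE 0.07, unadjusted p = 0.00541, adjusted p = 0.989, edgeR). It did not pass the test over all genes. Genes of cycling cells, in which Sox2, Sox9 and Hes1 are also expressed, had a median of -0.03 over 6 genes (-0.192 to 0.227 with 1 library left out), and 1 (Mki67) was higher in both pairs and 0 lower. Their sums were 68.0 and 61.9 TPM in the NC libraries, against 62.2 and 72.0 with anti-miR-124. Top2a and Ccna2, the most abundant, had log2 fold changes of -0.01 and -0.08.

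A further 12 Müller glia markers that the 10 genes do not include were examined in the same way, and all were tested. None was higher in both pairs, 2 (Car2 and Dbi) were lower in both. The median log2 fold change was 0.04 in the fit, but the median log2 ratio was -0.09 within pair A and -0.04 within pair B. Without NC B the fitted median was -0.045, without anti-miR-124 B -0.062 and without NC A 0.006. None had an adjusted p-value under 0.05, nor an unadjusted one, with edgeR. Vim and Car2 were the most abundant. Vim encodes vimentin, an intermediate filament of Müller glia, astrocytes, vessels and lens. It had 317 and 206 normalised counts in the libraries NC A and NC B, against 220 and 376 with anti-miR-124, so that NC A and anti-miR-124 B were the highest. NC A held the lens transcripts, but its sum of gliosis genes (105 TPM) was also above those of NC B (49.5) and anti-miR-124 A (56.8). The part of lens and of gliosis in the value of Vim was not tested. Car2, carbonic anhydrase 2, had 275 and 264 in the NC libraries, against 247 and 243 with anti-miR-124, with a log2 fold change of -0.14 (SE 0.07, adjusted p = 0.989, edgeR).

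The spread between libraries of the same group was set beside the differences within pairs. The median absolute log2 ratio over the 10 genes was 0.114 within pair A and 0.153 within pair B. Between both NC libraries it was 0.106, and between both anti-miR-124 libraries 0.082. For all genes tested these values were 0.146, 0.153, 0.131 and 0.157. The directions also differed between the pairs. In pair A, 3 of the 10 genes were above and 7 below their NC library, with a median log2 ratio of -0.084, and in pair B, 7 were above and 3 below, with a median of 0.070. Only Rlbp1 and Sox2 were lower and only Apoe and Kcnj10 higher in both pairs, and for these 4 genes the groups did not overlap, which is 40% of the 10 genes against 33.3% of all genes tested. Library anti-miR-124 B held the highest value for 4 of the 10 genes, Slc1a3, Aqp4, Apoe and Sox9 (40%, against 30.6% of all genes tested).

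**Figure D4:**
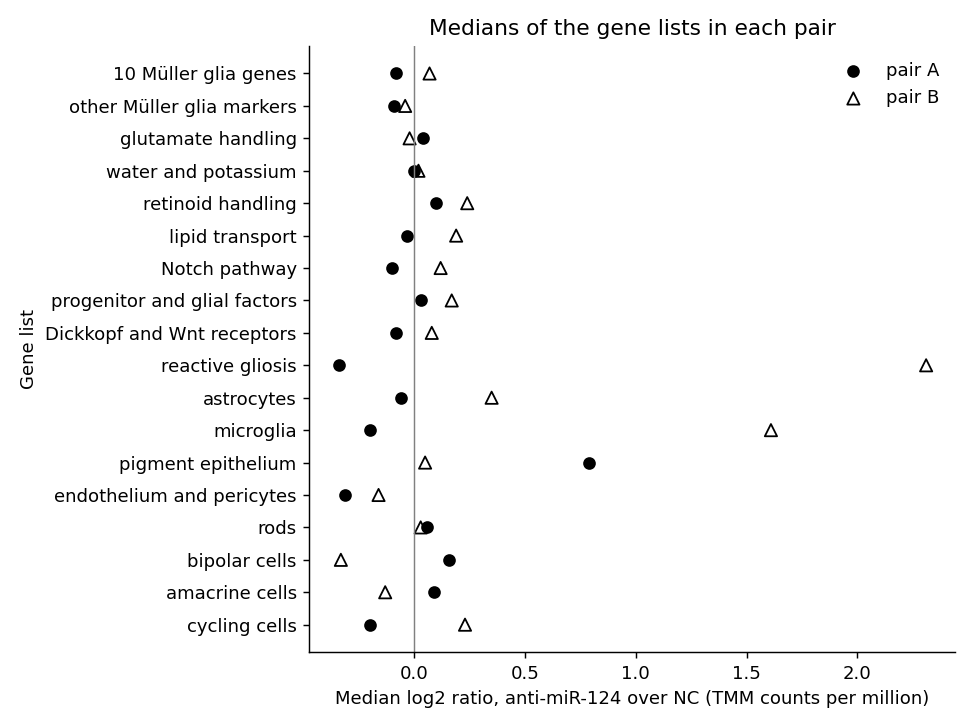
Median log2 ratio of normalised counts (anti-miR-124 over NC) of each gene list in pair A (filled circles) and pair B (open triangles), with the lens list left out. The Müller glia lists lie near 0 in both pairs, whereas reactive gliosis (2.31) and microglia (1.61) are far above 0 in pair B, and pigment epithelium is at 0.79 in pair A.

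Other cell types of the retina were checked by the same means, and the TPM sums of NC A are again lowered by its lens transcripts. Of all genes tested, 22.8% were higher and 24% lower in both pairs. Rod genes, at a sum of 6760 and 7610 TPM in the NC libraries, against 7560 and 8060 with anti-miR-124, were the most abundant list of a retinal cell type, with a median of 0.07 (0.021 without NC A, 0.036 without anti-miR-124 B and 0.11 without NC B), 4 of 8 genes (Nrl, Nr2e3, Pde6b and Sag) higher in both pairs and 1 (Gnat1) lower. Nr2e3 and Nrl, rod transcription factors, had log2 fold changes of 0.10 and 0.16. Bipolar genes had sums between 494 and 626 TPM and a fitted median of -0.07 (-0.195 to 0.054 with 1 library left out). All 6 were higher with anti-miR-124 within pair A, with a median log2 ratio of 0.16, and all 6 lower within pair B, with a median of -0.33. Prkca and Isl1, the most abundant of them, had log2 fold changes of -0.07 each. Of the 6 genes of endothelium and pericytes, 1 (Cdh5) was higher in both pairs and 5 were lower, and the median was -0.20, with -0.062 without NC A, the library with lens transcripts, and -0.334 without NC B. Rgs5, of pericytes, and Cldn5, of endothelial tight junctions, had log2 fold changes of -0.35 (SE 0.15) and -0.17 (SE 0.13). None of the genes of these lists had an adjusted p-value under 0.05 with edgeR. Of the lens genes, 18 of 21 were tested, all 18 with an unadjusted p-value under 0.05, and 4 (Cryga, Crygd, Crygs and Bfsp1) were lower in both pairs. Cryaa and Cryba1, crystallins and the most abundant, had 5880 and 2430 normalised counts in NC A and at most 18.9 and 4.83 in the others.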

How the data were processed

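RNA-Seq of mouse retina was analysed from the deposited read counts per gene, which the authors left without normalization, for 2 NC and 2 anti-miR-124 libraries. The authors also deposited gene lengths, from which TPM were computed here, and RPKM values in 4 columns, which were not used. The submitters' processing notes name HISAT2 and mm9, but 99.8% of 36837 matched gene symbols overlapped RefSeq's GRCm38 positions, so GRCm38 is given. The counting tool and its strand setting are not given in the sources used here. Columns were assigned to groups by the eye they name. The study's methods name 1 biological replicate in one place and 2 in another, and nothing ties the libraries to separate animals. The p-values therefore measure only the spread between these pooled samples. Both NC libraries differed in lens transcripts, at 6.72% of TPM in NC A and 0.0175% in NC B. How much of the spread is technical was not tested.

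Groups were compared two-sided by the quasi-likelihood test of edgeR 4.0.16 (R 4.3.3) after TMM normalization and edgeR's own filter on low counts, without covariates, with p-values adjusted by Benjamini-Hochberg and called under 0.05. The standard error is the log2 fold change divided by the root of the F statistic, and intervals are 95%. DESeq2 1.42.0 and limma-voom (limma 3.58.1) were alternatives, with other scalings, filters, a block and leaving out each library. Log2 ratios of lists in a pair used a pseudocount of 0.1. Python 3.11.15, numpy 2.4.6, pandas 2.3.3 and scipy 1.17.1 were used. The fit was tested on simulated counts. Changed genes were recovered with the right size. When counts were drawn with gene-wise dispersions, which spread more widely than the fitted trend, false calls exceeded the nominal rate, so a call by this test in 2 libraries per group is not firm. With dispersions on the trend, the setting adopted after that run, they were fewer.

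The 10 genes and the 18 context lists were chosen with earlier results of these data known. All 10 genes are named, with the 2 genes of each list that had the highest mean TPM. A few genes that this rule or their direction would name are not reported here. Other genes are said to be named after their values were seen. The mature sequence of the microRNA is not printed here.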

Additional observations from a re-analysis of the deposited data

How the results depend on the processing

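The crossed block and the omission of Apoe and Aqp4 are alternatives chosen after seeing the data. Genes called, 0 as reported, numbered 379 with no filter, 36 with DESeq2's Wald test and 160 with the crossed replicate block, and between 0 and 256 when 1 library was left out (256 for anti-miR-124 A, 57 for NC B, 12 for anti-miR-124 B). Of the 10 genes, 0 were called as reported, and 1, Apoe, with no filter, with the crossed block and on leaving out anti-miR-124 A (0 to 1 over the libraries left out). The adjusted p of Apoe lay between 1.13e-09 (edgeR with no filter) and 1.00, and the cause was not tested.

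Same-numbered libraries deviated from their group means with a correlation of -0.162 over genes. This value cannot decide whether the numbers pair the samples, because NC A and anti-miR-124 B each stood apart from the other library of their group. The main fit used no pairing, and a fit with the numbers as a block is given beside it. With the replicate block, 0 genes were called, with 376 at an unadjusted p-value under 0.05 against 694. In the block, Apoe had a log2 fold change of 0.507 and 0 of the 10 genes had an unadjusted p-value under 0.05, against 1 without it.

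The median log2 fold change of the 10 genes, 0.037, moved by less than the SD between pairs (0.109) under every alternative run. It lay between -0.014 and 0.086, and was 0.012 without Apoe and Aqp4. The value of 0.086 was the mean of both pairs of the log2 TPM ratio, which was 0.036 with the lens genes left out. Hes1 turned from -0.00510 to 0.00328 with total counts, 0.00206 with no filter, 0.000179 with limma-voom and 0.00145 without the lens genes. As the mean of both pairs of the log2 TPM ratio, Hes1 was 0.048, and Dkk3 turned from -0.0579 to 0.001. With the lens genes left out of that ratio, Hes1 was -0.001 and Dkk3 -0.048. With 1 library left out, the values of Hes1 ran from -0.0895 to 0.0826 and those of Glul from -0.0391 to 0.202. Those of Dkk3 ran from -0.223 to 0.128, of Sox9 from -0.0838 to 0.164 and of Aqp4 from -0.0325 to 0.638. With 110 counts or fewer in 3 libraries, Aqp4 has the largest counting error of the 10 genes.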
